A study of Mus musculus with 60 samples.

Results

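The 8 genes examined here handle zinc inside mouse cells. They are the 4 metallothioneins (Mt1, Mt2, Mt3 and Mt4), the metal-sensing transcription factor Mtf1, the zinc exporter Slc30a1 and the zinc importers Slc39a4 and Slc39a14. They were taken as a list of gene symbols, chosen with earlier results of these data known. Each symbol matched 1 of the 52636 gene identifiers in the count table, so all 8 were found.

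Metallothioneins are small cysteine-rich proteins that hold zinc and copper and buffer the free metal in the cell. MTF1 senses a rise in free zinc, binds short DNA sequences called metal response elements and switches on Mt1, Mt2 and Slc30a1. Mt1 and Mt2 are also induced by glucocorticoids and by the acute phase response, above all in liver. Mt3 is known from brain, and Mt4 from stratified squamous epithelia such as the epidermis. SLC30A1 sits in the plasma membrane and moves zinc out of the cell. SLC39A4 takes up dietary zinc in the gut, and SLC39A14 carries zinc, iron and manganese into liver cells.

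All mice were C57BL/6 animals that carried 1 copy each of a doxycycline-inducible cassette of 4 reprogramming factors (4F) and of R26::rtTA, the transactivator that doxycycline switches on. The 4F-induced old mice, aged 26 months, had drunk doxycycline at 1 mg/ml on 2 days of each week, with 5 days off, for 1 month from the age of 25 months. The untreated old mice were also aged 26 months, and the young mice, likewise untreated, were aged 3 months. Both of these groups carried the same cassette and transactivator. Doxycycline was never given to mice lacking the cassette, and effects of the drug and of the factors cannot be told apart. Kidney, liver, lung, muscle, skin and spleen were each read in 10 libraries: 3 from 4F-induced old mice (2 male, 1 female), 3 from untreated old mice (2 male, 1 female) and 4 from young mice (2 male, 2 female).

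Library totals ran from 16.7 to 50.7 M counts (median 28.4 M). Levels below are in CPM, each count divided by the library's scaled total in M counts, made comparable between the libraries of a tissue. Each tissue expressed the markers of its label; marker sums are in CPM of the unscaled library total. The summed hepatocyte markers, for example, stood at 72222 to 138261 CPM over the liver libraries. Some libraries also carried markers of another tissue. Untreated old skin library 3 held a hepatocyte sum of 10029 CPM, and untreated old spleen library 2 held 1483 CPM of pancreas acinar markers. All skin libraries held skeletal muscle fibre markers, at sums of 3380 to 63179 CPM in 4F-induced old and 30194 to 63069 CPM in untreated old skin. Young skin held 54896 to 111739 CPM, where the muscle libraries held 90581 to 126546 CPM. The lung values are given with the lung results. In tissue RNA, fewer cells of a type and less RNA per cell cannot be told apart. Nothing in the labels says that libraries came from separate animals, so p-values measure the spread between these samples.

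The 4 metallothionein genes lie beside each other on the forward strand of chromosome 8 (positions below are GRCm38, with GENCODE M21 genes). Mt4 spans 94137197 to 94139031, Mt3 spans 94152607 to 94154146, Mt2 spans 94172664 to 94173568 and Mt1 spans 94179082 to 94180327. Mtf1 lies on chromosome 4 (124802104 to 124849800), Slc30a1 on chromosome 1 (191906767 to 191913247), Slc39a4 on chromosome 15 (76612383 to 76617384) and Slc39a14 on chromosome 14 (70303469 to 70351425). Mt2 is overlapped on the opposite strand by the antisense gene Gm45774, which drew 18286 counts over the 60 libraries, against 79402 for Mt2. Mtf1 and Slc30a1 also overlap opposite-strand genes (1110065P20Rik with 7633 counts and 1700034H15Rik with 2375 counts). The strand setting of the counting is not given in the sources used here, so reads of these pairs cannot be told apart.

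The upstream sequences of the genes that MTF1 is known to switch on are shown because Mt1 and Mt2 moved together across the libraries. Each is the 250 bases before the RefSeq gene start (GRCm38.p6), forward strand, 5′ to 3′. Capitals mark the core letters of a metal response element, searched as TGCACNC or TGCGCNC on both strands.
Mt1, chr8:94178839-94179088: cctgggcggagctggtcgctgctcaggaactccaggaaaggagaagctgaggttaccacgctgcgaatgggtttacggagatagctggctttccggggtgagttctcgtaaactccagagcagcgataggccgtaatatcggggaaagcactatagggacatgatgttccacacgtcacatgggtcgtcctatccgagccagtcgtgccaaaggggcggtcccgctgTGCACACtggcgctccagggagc
Mt2, chr8:94172368-94172617: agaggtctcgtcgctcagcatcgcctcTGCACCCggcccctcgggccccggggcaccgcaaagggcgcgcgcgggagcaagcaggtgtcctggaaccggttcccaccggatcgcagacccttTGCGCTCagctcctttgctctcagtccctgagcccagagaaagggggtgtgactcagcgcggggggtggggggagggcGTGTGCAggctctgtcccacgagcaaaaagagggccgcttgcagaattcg
Slc30a1, chr1:191906531-191906780: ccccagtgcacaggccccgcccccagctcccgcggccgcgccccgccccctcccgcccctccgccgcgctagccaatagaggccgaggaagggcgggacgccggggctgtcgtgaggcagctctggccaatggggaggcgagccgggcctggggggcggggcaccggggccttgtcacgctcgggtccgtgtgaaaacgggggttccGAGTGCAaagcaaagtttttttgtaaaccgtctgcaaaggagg

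The Mt2 window held 3 matches, starting 223, 128 and 50 bases before the gene start, the last on the reverse strand. Mt1 held 1 match at 23 bases and Slc30a1 held 1 reverse-strand match at 43 bases. The Mt4 window held 1 match, and the Mt3 and Mtf1 windows held 0. Further matches lay past the gene start, outside these windows. They began at bases 3 and 21 of Mt1, 5 of Mt2, 28 of Mt3 and 31 of Slc30a1. The count in a window therefore depends on the annotated start. It is not the number of elements a gene has, and the genes cannot be ranked by it. The shares that follow cover only the bases before the start. Over all 32851 promoter windows of this length, 21.4% held at least 1 match and 1.26% at least 3. No matches overlapped in these windows, and a match describes the letters alone.

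Levels per kilobase of exon in the 4 young libraries of each tissue set the scale. Exon length joined all annotated exons of a gene, and for Mt1 these 1246 bases cover its whole span. Values per kb therefore compare different genes only roughly. In CPM, young skin averaged 241 for Mt1 and 131 for Mt2, the reverse of their order per kb. Mt1 averaged 193 ± 230 CPM per kb in skin, 132 ± 142 in liver, 54.9 ± 17.7 in kidney, 36.8 ± 3.84 in lung, 23.6 ± 20.6 in muscle and 17.3 ± 5.3 in spleen (SD, n = 4 each). Neighbours in that order overlapped in every case. Scaling was done within each tissue, so this order and those below compare values that were not scaled between tissues. Mt2 followed a like order, from 223 ± 281 CPM per kb in skin and 90.2 ± 102 in liver to 9.83 ± 6.41 in spleen. Mt3 averaged at most 1.18 ± 0.458 CPM per kb (skin). Mt4 averaged 109 ± 122 CPM per kb in young skin, and elsewhere in young tissue 1 read was found, in lung.

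The transporters had different tissue orders. Slc39a14 averaged 30.1 ± 5.04 CPM per kb in young liver and 6.73 ± 1.26 in kidney, and these ranges did not overlap each other or the tissues below them. Slc39a4 averaged 37.4 ± 4.09 CPM per kb in young lung and 26.3 ± 5.68 in liver, whose ranges overlapped, then 2.38 ± 0.131 in spleen. In kidney, skin and muscle Slc39a4 averaged 0.289 CPM per kb or less. Slc30a1 was highest in kidney (18.3 ± 4.42 CPM per kb) and lung (15.5 ± 1.12) and lowest in muscle (3.45 ± 0.3). Mtf1 varied least between tissues, from 5.29 ± 0.544 CPM per kb in spleen to 2.26 ± 0.222 in skin.

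**Figure D1:**
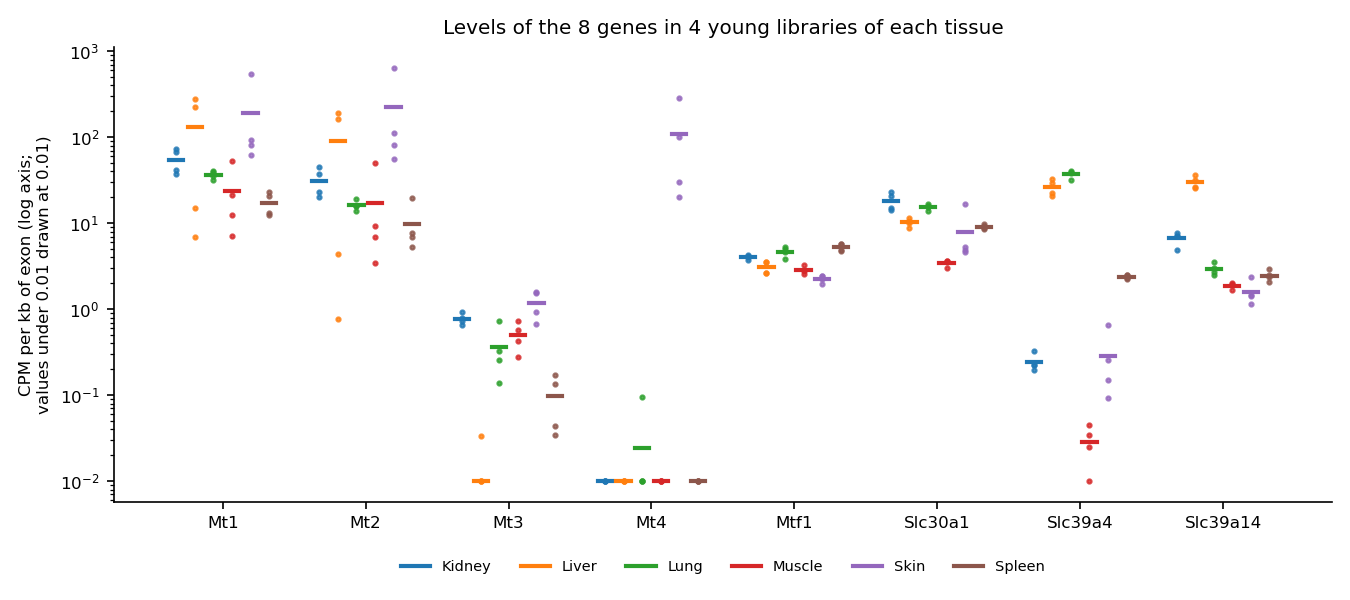
CPM per kb of exon (log axis) of the 8 genes in the 4 young libraries of each tissue; points are libraries, bars are means. Mt4 is seen in skin and Slc39a14 is highest in liver, and Mt1 and Mt2 scatter most in liver, skin and muscle.

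Age was compared first: untreated old mice against young mice. Each gene was tested with edgeR's quasi-likelihood test with sex in the model, and adjusted p under 0.05 (Benjamini-Hochberg over all genes of the tissue) counts as a change. In kidney, Mt1 and Mt2 were higher with age and none of the 7 members tested was lower. The kidney background was 6.29% of all genes called. Mt1 stood at 66.4, 85.9 and 159 CPM in untreated old kidneys and at 47, 52.1, 84.9 and 89.9 CPM in the young kidneys. The high value in each set came from females, and within each sex all old libraries lay above all young ones. Mt1 rose 1.65-fold (log2 0.72, SE 0.09, adjusted p = 0.00844). Mt2 stood at 19.1, 29.8 and 38.3 CPM in untreated old kidneys and at 12, 13.5, 22 and 26.2 CPM in the young kidneys. It rose 1.79-fold (log2 0.84, SE 0.14, adjusted p = 0.0182). Without the sex term neither passed (adjusted p = 0.491 for Mt1 and 0.434 for Mt2), and Mt2 was also lost without untreated old library 3 (0.0585), young library 1 (0.0546) or young library 2 (0.0639). Beside these rises, the neutrophil marker sum was 4.14 to 12.4 CPM in untreated old and 0.375 to 1.06 CPM in young kidneys, and the hepatocyte sum 703 to 812 CPM against 443 to 603 CPM. Their part was not tested. The other 5 members, Mt3, Mtf1, Slc30a1, Slc39a4 and Slc39a14, did not pass, and the median over the 7 was -0.06 on the log2 scale, against 0.00 for all genes.

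In lung, Mt2 rose and Slc30a1 fell with age, 2 of 7 members tested, where 18.2% of all genes were called. Mt2 stood at 24.6, 50.5 and 19.8 CPM in untreated old lungs, against 9.25, 9.25, 8.2 and 11.3 CPM in the young lungs. The groups did not overlap, and the rise was 2.98-fold (log2 1.58, SE 0.32, adjusted p = 0.0159). Mt1 stood at 55.3, 89.8 and 79.1 CPM in untreated old lungs and at 40, 50.6, 43.9 and 48.7 CPM in young lungs, and did not pass (log2 0.69, SE 0.23, adjusted p = 0.0677), though DESeq2 called it (0.0345) and so did edgeR without 4F-induced old library 2 (0.026) or untreated old library 1 (0.0485). These lungs held other markers: the hepatocyte sum was 336, 798 and 20.2 CPM in untreated old lungs, at most 11.4 CPM in the 4F-induced old lungs and at most 4.47 CPM in the young lungs. Scaled by the highest liver level of Mt2, those hepatocyte shares would carry 0.775, 1.84 and 0.0466 CPM of Mt2, where the same 3 libraries held 24.9, 51.8 and 19.2 CPM, all per unscaled library total. The neutrophil marker sum was 570 to 1290 CPM in untreated old lungs and 50.8 to 133 CPM in young lungs. The part of the hepatocyte and neutrophil markers in the Mt2 rise was not tested. With untreated old libraries 1 and 2 left out together, Mt2 no longer passed (log2 1.20, adjusted p = 0.13). It also missed the threshold without young library 1 (0.0572) or 2 (0.0568).

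In liver, Mt1 and Mt2 showed the widest differences and did not pass. Mt1 reached 236, 232 and 673 CPM in livers of untreated old mice and 18.8, 8.74, 284 and 348 CPM in those of young mice. Both young males were far below every other liver library, and the old and young ranges overlapped through the young females. Mt2 reached 116, 90.1 and 276 CPM in livers of untreated old mice, against 2.6, 0.453, 95.3 and 114 CPM in the young livers, with the same split. The fitted differences were log2 2.66 (SE 0.80, adjusted p = 0.0633) for Mt1 and 3.63 (SE 1.32, adjusted p = 0.0943) for Mt2. DESeq2 called both (adjusted p = 0.000958 and 0.00621), as did edgeR without a filter on low counts (0.023 and 0.0457). Mt1 alone was called without untreated old library 3 (0.0408). An interaction term for whether the age difference depended on sex gave log2 -3.00 (SE 0.82) for Mt1 and -4.69 (SE 1.33) for Mt2, both with adjusted p = 0.43. In liver 1 of the 6 members tested was called, Slc39a4 (described below), at a background of 8.76%.

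In muscle and spleen Mt1 and Mt2 did not pass with age. Muscle Mt1 stood at 15.3, 67 and 36.4 CPM in untreated old mice and at 8.91, 15.7, 26.4 and 66.4 CPM in young mice, with full overlap. Spleen Mt2 stood at 9.51, 28.8 and 7.72 CPM in untreated old mice and at 3.14, 4.56, 11.4 and 4.06 CPM in young mice, and library 2 of the untreated old spleens was the high one. The log2 difference of spleen Mt2 was 1.47 (SE 0.62, adjusted p = 0.161), and 0.69 without that library. Without it and young library 1 together the value was 0.46. Untreated old library 2 is also the spleen library with 1483 CPM of pancreas acinar markers. The neutrophil marker sum was 1281 to 7171 CPM in untreated old spleens and 255 to 452 CPM in young spleens. The B cell sum was 1218 to 1917 CPM against 3555 to 4630 CPM. The part of these marker lists in the Mt2 difference was not tested. In spleen 0 of 6 members were called by edgeR at a background of 0.316%, 2 had unadjusted p under 0.05, and DESeq2 called 1 (Slc39a4). In skin edgeR called 0 of 8 members and 0 of 18391 genes (0%), 1 member had unadjusted p under 0.05 and DESeq2 called 0 members.

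**Figure D2:**
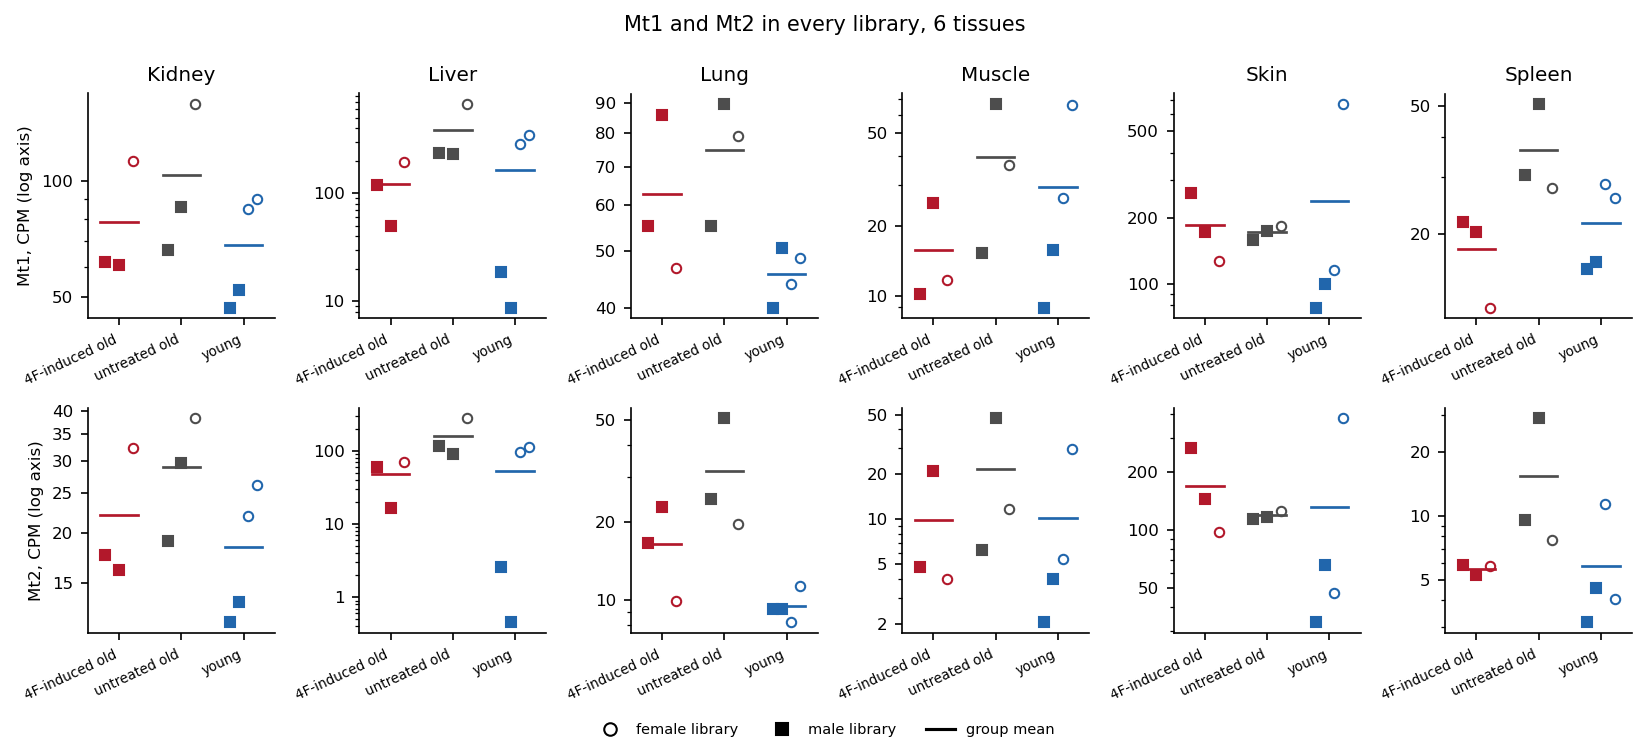
CPM (log axis) of Mt1 (top) and Mt2 (bottom) in every library of 6 tissues, by group; open circles are females, filled squares males, bars group means. In liver the 2 young males lie at 18.8 and 8.74 CPM of Mt1, and in skin and muscle young library 4 stands above the other young libraries.

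The second comparison was 4F-induced old against untreated old mice. No member was called in any tissue by edgeR or, with the same filter, by DESeq2. Over all genes edgeR called 0 in kidney (0%), liver (0%), lung (0%) and skin (0%), 1 in muscle (0.00613%) and 1 in spleen (0.00536%). Members with unadjusted p under 0.05 numbered 3 in kidney, 1 in lung, 2 in spleen and 0 in liver, muscle and skin. Without the filter on low counts, Mt1 and Mt2 were called in kidney (adjusted p = 0.0238 and 0.0499).

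Mt1 and Mt2 had log2 differences below 0 in 5 of 6 tissues, all but skin. None of them passed, and the tissues may share animals, so the 5 are not independent. In liver, Mt1 stood at 120, 49.7 and 195 CPM in the 4F-induced old mice, against 236, 232 and 673 CPM in untreated old mice. Every induced liver lay below every untreated old liver (log2 -1.51, SE 0.74, adjusted p = 0.292). Liver Mt2 stood at 59.2, 16.7 and 70.8 CPM in 4F-induced old mice and at 116, 90.1 and 276 CPM in untreated old mice, again without overlap (log2 -1.49, adjusted p = 0.429). Without 4F-induced old liver library 1 the values were -2.30 for Mt1 and -2.76 for Mt2. In spleen, Mt1 stood at 21.8, 20.3 and 11.8 CPM in 4F-induced old mice, against 30.5, 50.7 and 27.7 CPM in untreated old mice, without overlap (log2 -1.02, SE 0.36, adjusted p = 0.347). Spleen Mt2 stood at 5.83, 5.28 and 5.81 CPM in 4F-induced old mice, against 9.51, 28.8 and 7.72 CPM in untreated old mice (log2 -1.47, SE 0.62, adjusted p = 0.382). Without untreated old spleen library 2 the values were -0.66 for Mt1 and -0.56 for Mt2. Without it and young library 1 together they were -0.71 and -0.58. That untreated old library held the 1483 CPM of pancreas acinar markers, whose part was not tested. The 4F-induced old spleens were tightly grouped for Mt2. Their neutrophil sums were 281 to 1486 CPM, against 1281 to 7171 CPM in untreated old spleens, and their part was not tested.

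In kidney both genes were lower by small amounts that did not pass. Mt1 stood at 61.9, 60.5 and 113 CPM in 4F-induced old kidneys and at 66.4, 85.9 and 159 CPM in untreated old kidneys (log2 -0.38, SE 0.10, adjusted p = 0.849). Mt2 stood at 17.6, 16.2 and 32.4 CPM in 4F-induced old kidneys and at 19.1, 29.8 and 38.3 CPM in untreated old kidneys (log2 -0.44, SE 0.15, adjusted p = 0.849), and the value was -0.22 without untreated old library 2. Within each sex the induced kidneys were the lower ones for both genes. Lung Mt2 stood at 16.6, 23 and 9.93 CPM in 4F-induced old mice and at 24.6, 50.5 and 19.8 CPM in untreated old mice, with overlap (log2 -0.94, SE 0.33, adjusted p = 0.643), or -0.50 without untreated old library 2. Muscle Mt1 stood at 10.2, 25.2 and 11.7 CPM in 4F-induced old mice and at 15.3, 67 and 36.4 CPM in untreated old mice (log2 -1.31, SE 0.72, adjusted p = 0.821). Without untreated old library 2 that muscle value was -0.26, and for muscle Mt2 it was 0.63 in place of -1.13.

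The age and induction comparisons share the untreated old libraries, so their values are not independent. Set directly against young mice, the 4F-induced old mice had no call for Mt1 or Mt2 in any tissue. Their Mt1 log2 differences ran from -0.56 in muscle to 1.15 in liver. For the kidney the value was 0.34 (SE 0.09, adjusted p = 0.0813), and DESeq2 called it (0.0221). In that comparison edgeR called 0 of 7 members in kidney (background 2.66%), 0 of 6 in liver (0.514%), 2 of 7 in lung (23.8%), 2 of 6 in muscle (19.9%), 0 of 8 in skin (0%) and 0 of 6 in spleen (0%). Members with unadjusted p under 0.05 in kidney, liver, skin and spleen numbered 5, 2, 0 and 1, and DESeq2 called 2, 1, 0 and 0.

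**Figure D3:**
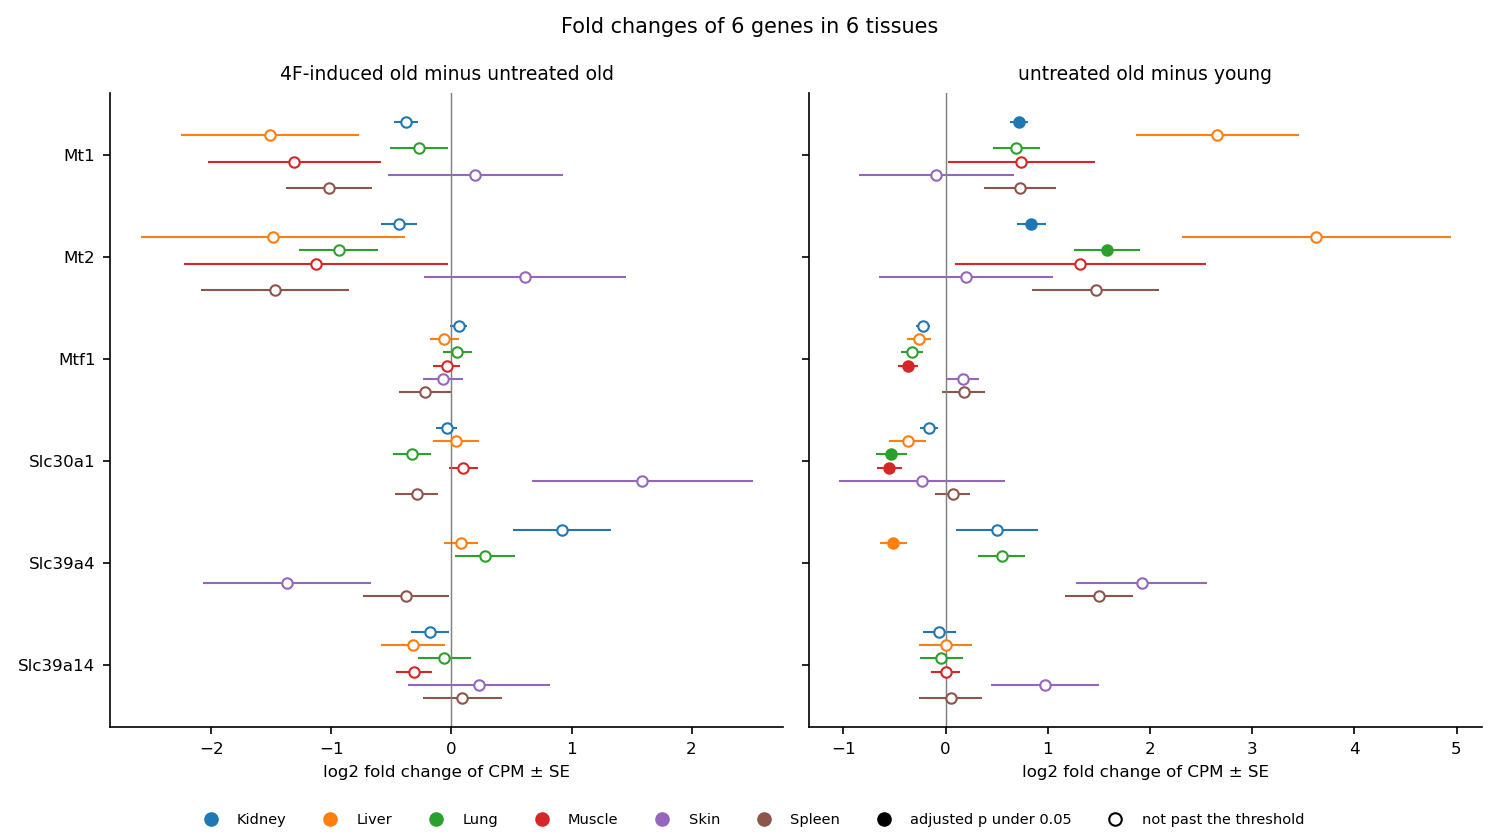
Log2 fold changes (± SE) of 6 genes in 6 tissues, 4F-induced old minus untreated old (left) and untreated old minus young (right); filled points passed adjusted p under 0.05. No point on the left is filled, and on the right Mt1 and Mt2 in kidney and Mt2 in lung are filled above 0.

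In kidney, females and males differed in several of these genes. This comparison, female minus male from the same fits, was chosen after the values were seen. In kidney 5 of 7 members tested differed, where 32.4% of all genes were called. Kidney Mt1 averaged 112 ± 33.9 CPM in 4 females and 62.3 ± 13.5 CPM in 6 males, 1.88-fold higher in females (log2 0.91, SE 0.08, adjusted p = 5.79e-05). Mt2 averaged 29.7 ± 7.12 CPM in females and 18 ± 6.32 CPM in males (log2 0.85, SE 0.12, adjusted p = 0.000894). Slc30a1 ran the other way, at 75.7 ± 1.6 CPM in females and 101 ± 13.1 CPM in males (log2 -0.44, SE 0.08, adjusted p = 0.00214). The female kidneys lay between 74.5 and 77.9 CPM whatever their group, and the male kidneys between 83.5 and 121 CPM. These 3 calls held under every one of the 13 alternatives run, and in each of the 3 groups all females lay on the same side of all males.

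Kidney Mt3 was also higher in females, at 1.14 ± 0.265 CPM against 0.584 ± 0.144 CPM in males (log2 0.93, adjusted p = 0.0168), a level of few counts that missed the threshold without the 4F-induced old female (0.0725) or the untreated old female (0.0679). Kidney Slc39a4 averaged 1.88 ± 1.8 CPM in females and 0.796 ± 0.133 CPM in males (log2 1.14, adjusted p = 0.0233). Its female mean rests on the 4F-induced old female at 4.55 CPM, without which the value was 0.47 (adjusted p = 0.151), and the call was also lost without 4F-induced old library 1 (0.0517) or 2 (0.0648). In liver the fitted sex differences were larger and did not pass: log2 2.79 for Mt1 (SE 0.70, adjusted p = 0.123) and 3.30 for Mt2 (SE 1.17, adjusted p = 0.296). In every group the liver females lay above the liver males for both genes. DESeq2 called Mt1, Mt2 and Slc39a4 in liver (adjusted p = 5.92e-05, 0.0106 and 0.00898). In liver edgeR called 0 members and 1.5% of all genes. In lung (background 0.0526%), muscle (0.3%), skin (0.0163%) and spleen (0.0268%) both tools called 0 members. Members with unadjusted p under 0.05 numbered 3 in liver, 3 in lung, 2 in muscle, 1 in skin and 0 in spleen.

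Mt3 passed the filter on low counts in kidney, lung, muscle and skin and changed in none of the 3 group comparisons. It never exceeded 1.94 CPM. In muscle it stood at 1.04, 1.73 and 0.843 CPM in untreated old mice and at 0.452, 0.609, 0.298 and 0.782 CPM in young mice, without overlap (log2 1.09, SE 0.37, adjusted p = 0.0731). Without young muscle library 4 edgeR called that age difference (log2 1.40, adjusted p = 0.0309).

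Mt4 passed the filter in skin alone, the tissue of its known site. It stood at 339, 57 and 28.2 CPM in 4F-induced old skin, at 33.9, 14 and 27.4 CPM in untreated old skin and at 12, 113, 8 and 40.3 CPM in young skin. The spread within groups was as wide as that between them, and the induction difference did not pass (log2 2.06, SE 1.12, adjusted p = 0.824). Outside skin 1 lung library, untreated old library 1, held 32.9 CPM of Mt4, and its keratinocyte marker sum was 347 CPM, against at most 24.4 CPM in the other lungs. In every other lung Mt4 was at 0.0384 CPM or less.

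Skin libraries differed in several of these genes at once. Slc30a1 stood at 357, 28.7 and 26.5 CPM in 4F-induced old skin, at 33.7, 39.4 and 33.1 CPM in untreated old skin and at 24.1, 87.5, 25.6 and 27.7 CPM in young skin. Induced library 1 stood far above the rest, and young library 2 was next. Slc39a14 stood at 93.3, 21.2 and 16.5 CPM in 4F-induced old skin, at 29.8, 30.8 and 39.8 CPM in untreated old skin and at 14.9, 25.1, 15.6 and 12 CPM in young skin. The same 2 libraries were the highest of their groups for Mt4, Slc30a1 and Slc39a14. The Slc30a1 induction value of log2 1.59 (SE 0.92, adjusted p = 0.824) became -0.26 without induced library 1. The Mt4 value became 0.75 and the Slc39a14 value was -0.81, in place of 0.23, in the same fit. Keratinocyte marker sums were 9381 to 21598 CPM in 4F-induced old, 9362 to 15473 CPM in untreated old and 1699 to 11634 CPM in young skin, and their part was not tested. Skeletal muscle fibre sums, given above for skin, also differed between the skin libraries, and their part was not tested either. Mt1 and Mt2 had another high library: young library 4 stood at 670 CPM of Mt1 and 378 CPM of Mt2, against at most 116 and 65.6 CPM in the other young skins.

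**Figure D4:**
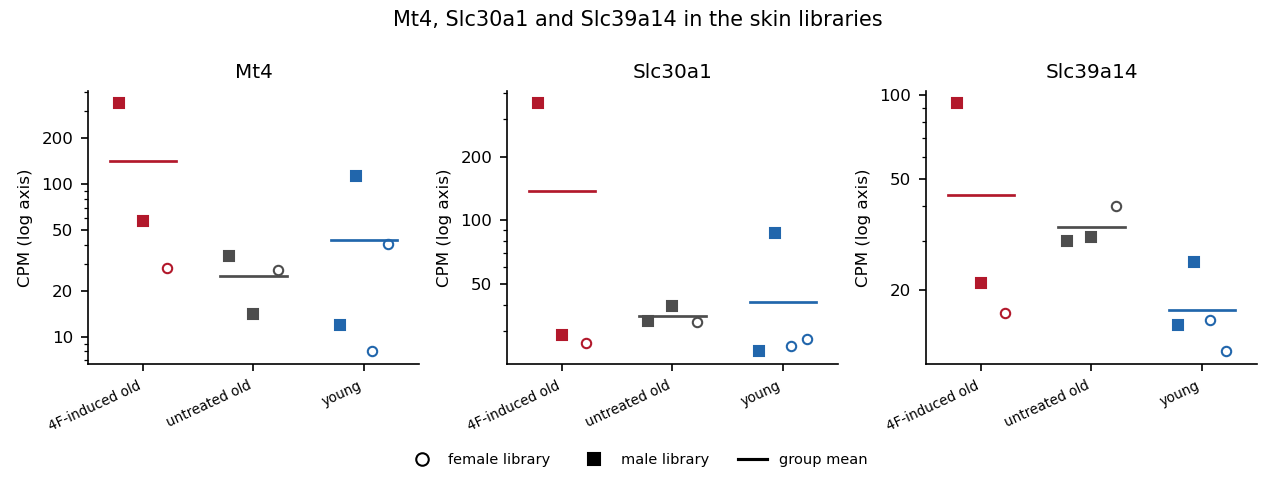
CPM (log axis) of Mt4, Slc30a1 and Slc39a14 in the skin libraries by group; open circles are females, filled squares males, bars means. 4F-induced old library 1 and young library 2, both male, are the highest of their groups in all 3 panels.

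Mtf1, the metal sensor, fell in muscle with age, by a fold of 0.775. It stood at 19, 18.7 and 20.4 CPM in untreated old muscle, against 24.5, 23, 25.4 and 28.9 CPM in young muscle, without overlap (log2 -0.37, SE 0.10, adjusted p = 0.038). Induced muscle held a like level of 19.9, 16.8 and 19.7 CPM, which was also lower than in young muscle (log2 -0.41, SE 0.10, adjusted p = 0.0246). The age call held under 4 of 16 alternatives, with adjusted p between 0.0253 and 0.168, while its log2 value lay between -0.40 and -0.33. It was lost without 4F-induced old library 2 (0.0526) or 3 (0.063), untreated old library 1 (0.0524), 2 (0.1) or 3 (0.168), or young library 1 (0.0888), 2 (0.0655) or 4 (0.0766). It was also lost with RLE scaling (0.0502), without the filter on low counts (0.095) and with only the 2 groups compared (0.0771). The call against young was lost without 4F-induced old library 2 (0.0893) or 3 (0.132), or young library 1 (0.0572) or 4 (0.0523), and without the filter on low counts (0.0644). Kidney, liver and lung had Mtf1 values of -0.22, -0.26 and -0.33 with age, with old libraries below all young ones and no call (adjusted p = 0.0857, 0.156 and 0.0657; DESeq2 called the lung, 0.0318). Skin (0.17) and spleen (0.18) lay above 0. The age difference of Mtf1 varied between tissues (F = 4.38, adjusted p = 0.0142 in one fit of all 60 libraries). That test called 34.6% of all genes and treated the libraries as independent, though the tissues may share animals. The Mtf1 call was lost without untreated old skin library 3 (adjusted p = 0.0515).

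Slc30a1, the exporter, was lower in old muscle and lung. With age, 2 of 6 members tested changed in muscle, Mtf1 and Slc30a1, both downward, where 16.5% of all genes were called. Muscle Slc30a1 stood at 13.2, 13.4 and 11.5 CPM in untreated old mice, against 19.1, 18.9, 18.6 and 15.7 CPM in young mice. The groups did not overlap and it fell by 0.55 on the log2 scale (SE 0.12, adjusted p = 0.0177). In 4F-induced old muscle it stood at 13.5, 16.3 and 11.3 CPM, and it was lower there than in young muscle too (log2 -0.45, SE 0.12, adjusted p = 0.0287). Adipocyte marker sums were 9.85 to 130 CPM in 4F-induced old, 3.53 to 113 CPM in untreated old and 242 to 3655 CPM in young muscle, and their part was not tested. The Slc30a1 age call was lost without untreated old library 2 (0.0561) or 3 (0.0975). The call against young was lost without 4F-induced old library 1 (0.0952) or 3 (0.171), or young library 1 (0.0554) or 2 (0.0566), without the filter on low counts (0.0578) and without the sex term (0.0654). Without young libraries 1 and 2 together, which held kidney transcripts, the muscle calls missed the threshold (adjusted p = 0.0874 for Slc30a1 and 0.16 for Mtf1 with age, 0.094 and 0.108 for induced against young).

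Lung Slc30a1 stood at 49.9, 56.9 and 33.8 CPM in 4F-induced old mice, at 51.9, 70.5 and 52.2 CPM in untreated old mice and at 81.8, 86.7, 72.9 and 83.3 CPM in young mice. Neither old group reached the young range. It fell in untreated old lungs by 0.53 on the log2 scale (SE 0.15, adjusted p = 0.0402) and in 4F-induced old lungs, against young, by 0.87 (SE 0.15, adjusted p = 0.00699). The second of these held under all 16 alternatives run (adjusted p from 1.07e-05 to 0.0427), while the first held under 7 of 16 (0.0117 to 0.24). The age call was lost without 4F-induced old library 1 (0.0637), untreated old library 1 (0.118) or 3 (0.1), any 1 young library (0.0664 to 0.0902), or untreated old libraries 1 and 2 together (0.24), and without the sex term (0.0868). Cardiomyocyte marker sums were 58.1 to 212 CPM in 4F-induced old, 89.5 to 222 CPM in untreated old and 604 to 2043 CPM in young lungs. Neutrophil sums were 91.5 to 679 CPM in 4F-induced old, 570 to 1290 CPM in untreated old and 50.8 to 133 CPM in young lungs. The part of both marker lists was not tested. Lung Slc30a1 did not pass between the old groups (log2 -0.33, SE 0.16, adjusted p = 0.716). Its age difference did not vary between tissues by the test over all libraries (F = 0.399, adjusted p = 0.892).

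Slc39a4, known as the intestinal zinc importer, was lower with age in liver and higher in 4F-induced old than in young lung. Liver Slc39a4 stood at 74.2, 56.9 and 49 CPM in untreated old mice and at 101, 91.6, 69.7 and 64.2 CPM in young mice. The ranges overlapped across the sexes, males being higher in each group, and it fell by 0.51 on the log2 scale (SE 0.13, adjusted p = 0.0496). That call lies at the threshold and held under 4 of 15 alternatives (adjusted p from 0.00328 to 0.165). It was lost without any 1 untreated old library (0.0599 to 0.0777), any 1 young library (0.0754 to 0.165), or 4F-induced old library 2 (0.0592) or 3 (0.0845), and also without the sex term (0.163) or with only the 2 groups compared (0.083). The macrophage marker sum was 712 to 5575 CPM in untreated old and 241 to 494 CPM in young livers, and the neutrophil sum 58.4 to 107 CPM against 0.759 to 1.28 CPM. Their part was not tested. Lung Slc39a4 stood at 274, 174 and 174 CPM in 4F-induced old mice, at 187, 117 and 207 CPM in untreated old mice and at 126, 119, 97.6 and 122 CPM in young mice. Every 4F-induced old lung lay above every young lung, and it rose 1.77-fold (log2 0.83, SE 0.23, adjusted p = 0.0358). It missed the threshold when induced library 1 (0.116) or 3 (0.0591) or any single young library (0.0718 to 0.086) was left out. Alveolar and club cell marker sums were 47161 to 98427 CPM in 4F-induced old and 53560 to 61635 CPM in young lungs. Kidney tubule marker sums were 201 to 337 CPM in 4F-induced old and 78.4 to 103 CPM in young lungs, beside the cardiomyocyte sums given above, and the part of these markers was not tested.

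In spleen, Slc39a4 stood at 10.3, 11.6 and 26.6 CPM in 4F-induced old mice, at 26.9, 14.6 and 18.3 CPM in untreated old mice and at 7.75, 6.96, 7.7 and 7.11 CPM in young mice. The young spleens were closely grouped, and all old spleens lay above them. The age difference was 2.83-fold (SE 0.33 on the log2 scale) with adjusted p = 0.0685, and DESeq2 called it (0.00146), as did edgeR without 4F-induced old library 1 (0.0314) or 2 (0.0444). In skin, untreated old library 3 stood at 9.25 CPM of Slc39a4, against 1.23 CPM or less in the other untreated old skins. This is the skin library with the hepatocyte sum of 10029 CPM, a share of 8.71% of the mean liver sum. At the highest liver level that share would carry 8.25 CPM of Slc39a4, where the library held 10.4 CPM, both per unscaled library total. The part of this hepatocyte signal was not tested. Without that skin library, the skin age value was 0.95 in place of 1.92. The age difference of Slc39a4 varied between tissues (F = 6.48, adjusted p = 0.00208), and the call held under all 62 alternatives run. The test treated the 60 libraries as independent, though the tissues may share animals. In that test 34.6% of all genes were called, and 2 of 8 members. The same test of induction called 0 members (Slc30a1 and Slc39a4 had unadjusted p under 0.05) and 0.181% of all genes.

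Slc39a14, the liver importer of zinc and non-transferrin iron, changed in no comparison or tissue. In liver it stood at 242, 258 and 206 CPM in 4F-induced old mice, at 279, 189 and 467 CPM in untreated old mice and at 268, 281, 338 and 383 CPM in young mice. All 3 induced livers lay below all 4 young livers (log2 -0.32, SE 0.26, adjusted p = 0.563), and the value was -0.02 without 4F-induced old library 3. Untreated old liver library 3, the female at 467 CPM, was also the highest liver library for Mt1 and Mt2. In skin, untreated old libraries lay above the young ones (log2 0.97, SE 0.53, adjusted p = 0.381), a value that was 0.30 without untreated old library 3. That skin library, at 39.8 CPM of Slc39a14, is the one with the hepatocyte sum of 10029 CPM, and Slc39a14 was highest in liver. The part of this hepatocyte signal in the Slc39a14 value was not tested.

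**Figure D5:**
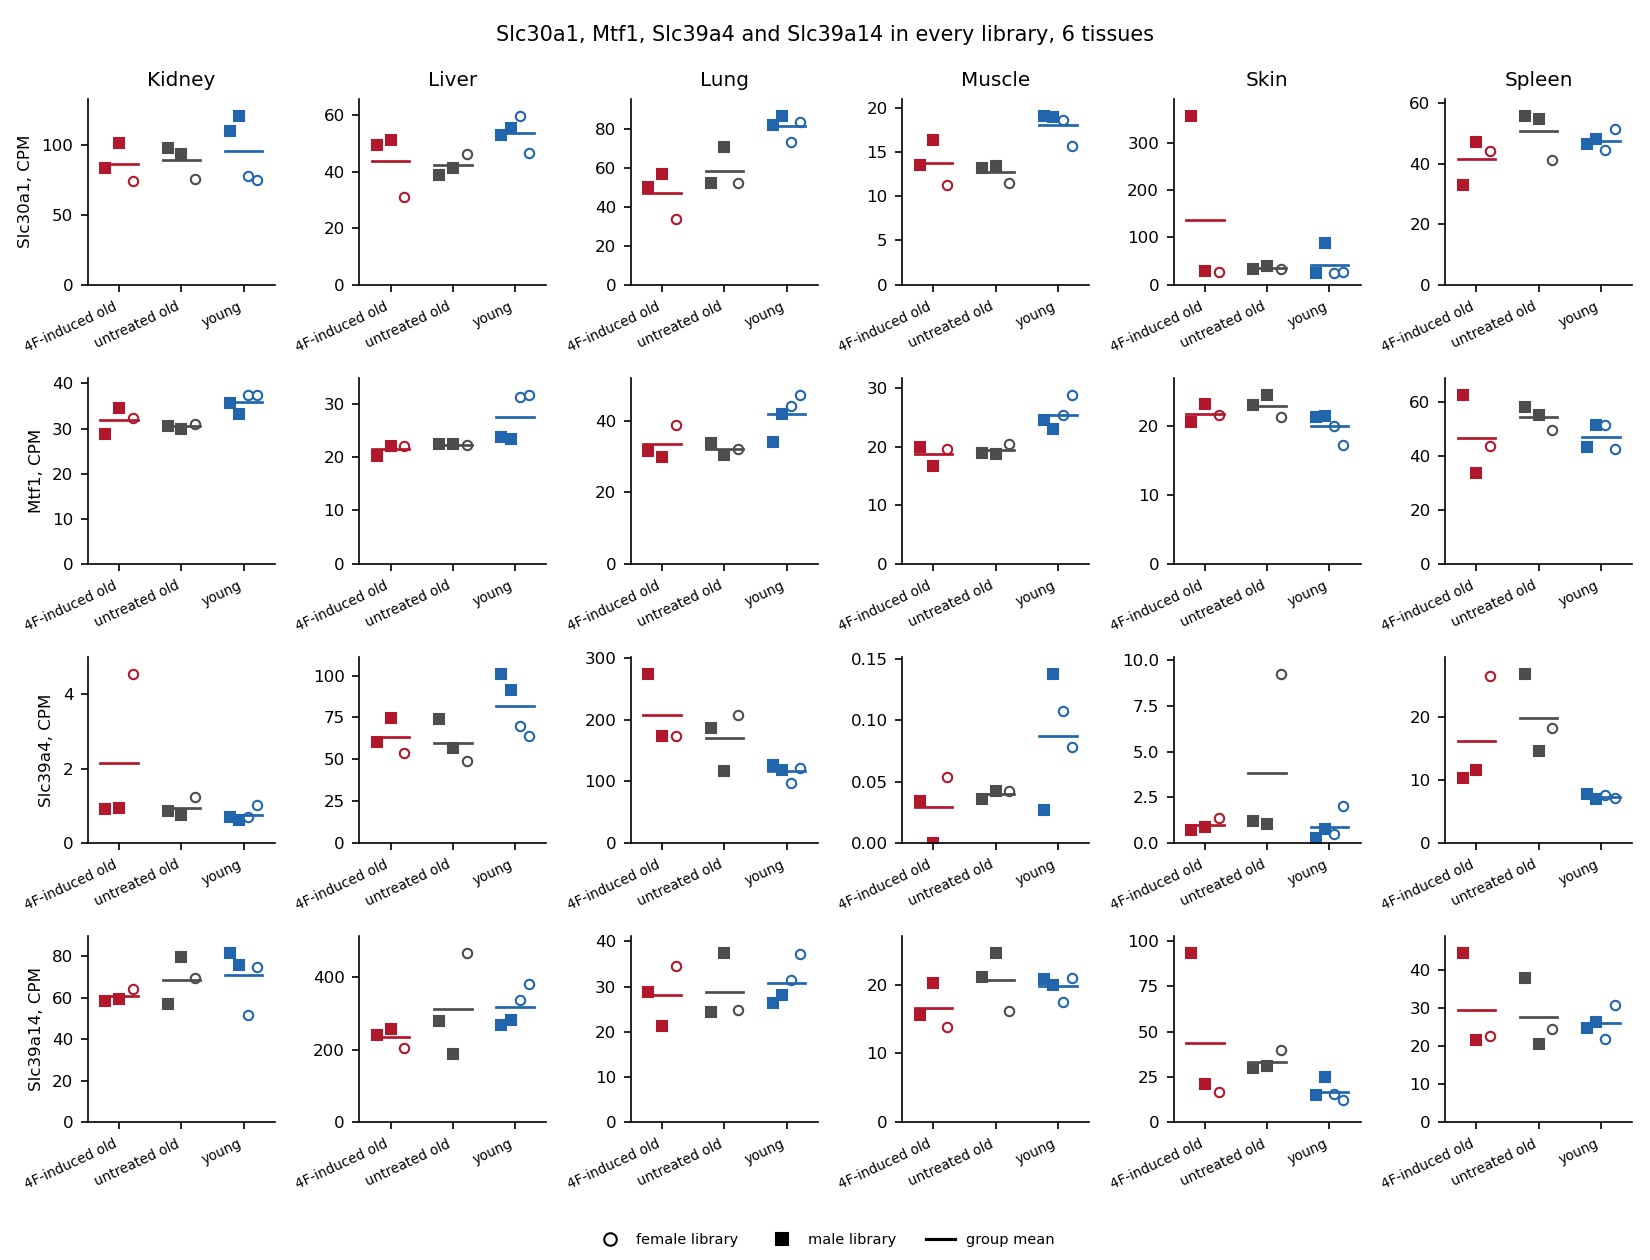
CPM of Slc30a1, Mtf1, Slc39a4 and Slc39a14 (rows) in every library of 6 tissues, by group; open circles are females, filled squares males, bars means, and each axis starts at 0. For Slc30a1, lungs of both old groups and untreated old muscles lie below the young ones, and old spleens lie above young ones for Slc39a4.

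The other 21 zinc transporters of the SLC30 and SLC39 families, a list kept for context, had 16 to 18 members tested per tissue. With induction 0 were called in any tissue. With age 1 was called, Slc39a1, 1 of 16 tested in muscle (background 16.5%), at 28.4, 25.1 and 27.3 CPM in untreated old and 34.5, 35.2, 36.7 and 31.8 CPM in young mice (log2 -0.36, SE 0.09, adjusted p = 0.0323). In 4F-induced old against young lungs 4 of 17 rose and 2 fell (background 23.8%), with a list median of 0.02, against 0.03 for all genes. Slc39a11 rose there (log2 0.94, adjusted p = 0.00703), as did Slc39a2 (log2 4.23, adjusted p = 0.01), whose induced lungs stood at 104, 5.81 and 137 CPM, against 3.15 to 5.48 CPM in young lungs. Slc39a6 fell (log2 -0.49, adjusted p = 0.0208). The most abundant of the list per length in young tissue was Slc39a8 in lung, at 34.7 CPM per kb, beside Slc39a4 at 37.4.

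Genes of pathways that act on metallothioneins were counted from lists as well. Of 13 acute phase genes tested in lung, 8 rose and 1 fell with age (list median 2.51, all genes 0.03, background 18.2%). The fibrinogen chain Fga stood at 21.1, 61.6 and 51.1 CPM in untreated old lungs, against 0.247, 0.115, 0.616 and 0.986 CPM in young lungs. In the same untreated old lungs Fgb stood at 15.7, 52.7 and 0.0657 CPM and Fgg at 16.9, 43.4 and 66.2 CPM. Their hepatocyte marker sums were 336, 798 and 20.2 CPM, and the part of these markers in the acute phase count was not tested. In 4F-induced old against young lungs 9 of 13 rose and 1 fell (median 3.34, background 23.8%). Fgg stood at 115, 9.22 and 214 CPM and Fga at 66.9, 4.18 and 145 CPM in these induced lungs. Hepatocyte sums there were at most 11.4 CPM, and their part was not tested. In kidney 4 of 12 rose with age (median 1.19, all genes 0.00, background 6.29%), led by haptoglobin Hp, at 14, 17.3 and 11.5 CPM in untreated old and 5.68, 4.87, 5.01 and 5.11 CPM in young kidneys (log2 1.47, adjusted p = 0.00844). In liver 2 of 16 rose (Apcs and Steap4, median 1.46, background 8.76%). In muscle 0 of 7 rose and 2 fell, Orm1 (log2 -4.66, adjusted p = 0.00987) and Socs3 (log2 -0.88, adjusted p = 0.0213), with a median of -0.27, against -0.01 for all genes, and a background of 16.5%.

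Of 12 glucocorticoid-responsive genes tested in lung, 0 rose and 2 fell with age (background 18.2%) and 8 fell in 4F-induced old against young mice (median -1.21, background 23.8%). The clock gene Per1 led the second count, at 58.8, 87.1 and 67.9 CPM in 4F-induced old and 200, 306, 312 and 360 CPM in young lungs (adjusted p = 0.00256). In muscle 2 of 11 rose with age, Pdk4 (log2 1.45, adjusted p = 0.0102) and Zbtb16 (log2 0.98, adjusted p = 0.0333), and the receptor gene Nr3c1 fell (log2 -0.43, adjusted p = 0.0284), at a background of 16.5%. With induction 1 gene of these lists passed in any tissue, Pdk4 in muscle, at 133, 131 and 125 CPM in 4F-induced old and 949, 1579 and 977 CPM in untreated old mice (log2 -3.17, SE 0.27, adjusted p = 0.0102). Of 9 oxidative stress genes tested in lung, 4 rose with age (background 18.2%). The iron exporter Slc40a1 stood at 24.8, 100 and 42.4 CPM in untreated old and 20.2, 17.6, 14.4 and 12.3 CPM in young lungs (log2 1.71, adjusted p = 0.0188). Hmox1, the heme oxygenase, rose too (log2 1.37, adjusted p = 0.0263).

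The genes whose pattern was most like each member were sought over the 60 libraries, after removing each tissue's mean, among 13004 genes with a mean log2 CPM of at least 1. These are descriptions, since libraries of a tissue share depth and cell makeup. Mt1 was most like Mt2 (Pearson r = 0.95), the Mt2 antisense gene Gm45774 (0.94) and Gadd45b (0.68), and the step after Gm45774 was wide. The ratio of Mt1 to Mt2 CPM had a median of 4.14 in lung (1.78 to 5.47), 3.63 in kidney (2.89 to 4.16) and 3.59 in spleen (1.76 to 6.39). It was 2.86 in liver (2.03 to 19.3), 2.68 in muscle (1.2 to 4.87) and 1.49 in skin (0.986 to 2.46). The ranges of kidney and skin did not overlap, all others did, and the difference between tissues was not tested. Slc30a1 was most like Jmy, Eaf1 and Braf (0.84 each), and these 3 were also highest in skin in 4F-induced old library 1, at 159, 187 and 102 CPM. Mt4 was most like Ada (0.73) and Asprv1 (0.69), a protease of the epidermis. Slc39a14 was most like Glyr1 (0.82), Mtf1 like Rnf214 (0.78), Slc39a4 like Kynu (0.68) and Mt3 like Tada2a (0.56).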

How the data were processed

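The deposited files hold whole-number counts of reads per gene for 60 libraries, made by the authors from RNeasy RNA with TruSeq Stranded Total RNA libraries, per the labels' protocols. Per the submitters' processing notes, reads were placed on GRCm38. Which aligner, counter, strand setting and annotation were used is not given in the sources used here. The 60 single files held the same values as the series table. Identifiers with no symbol took 0.0231% of counts.

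For each tissue, genes were filtered with edgeR's filterByExpr by group, scaled with TMM and tested in edgeR 4.0.16 (R 4.3.3) with the quasi-likelihood test on group and sex, over all 10 libraries, with Benjamini-Hochberg adjustment over all genes and a threshold of 0.05. DESeq2 1.42.0 was an alternative. Differences between tissues were tested by an F test over 60 libraries in the same tool, with no term for the animal. The procedures were tested on simulated counts. Levels per kilobase used GENCODE M21 exon lengths, and promoters came from RefSeq (GRCm38.p6), which matched 6 of the 8 genes.

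The 8 genes and the context lists were chosen with earlier results of these data known. All 8 genes were described in every tissue, with up to 3 called genes per context list, smallest adjusted p first, and up to 3 genes most like each member. The comparison of the sexes, the sex-by-group term and the fits that leave out libraries together were chosen after seeing the data. Counts limit precision by depth: 3 counts were taken as the limit a count of 0 allows.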

Additional observations from a re-analysis of the deposited data

Results flagged for a closer look

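Of 44 groups of 4 libraries checked for a value far from the others, 7 held one. The rule flags about 1 in 20 groups of normally distributed values. CPM values are skewed, and a group with a single read among zeros is always flagged, so the 7 cannot be set against that rate. In skin, young library 4 stood at 670 CPM of Mt1, against 116 CPM or less in the other young libraries, and at 378 CPM of Mt2, against 65.6 CPM or less. In muscle, young library 4 stood at 29.3 CPM of Mt2, against 5.41 CPM or less, and at 15.7 CPM of Slc30a1, below the 18.6 CPM or more of the others. In skin, young library 2 stood at 87.5 CPM of Slc30a1, against 27.7 CPM or less. The remaining values were single reads: Mt3 in young liver library 4 at 0.0356 CPM and Mt4 in young lung library 2 at 0.0384 CPM, where the other young libraries were at 0.

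The difference between untreated old and young mice varied between tissues for Mtf1 (F = 4.38, edgeR adjusted p = 0.0142) and for Slc39a4 (F = 6.48, edgeR adjusted p = 0.00208). In that test 34.6% of all genes were called, and libraries were treated as independent. The Mtf1 call was lost without untreated old skin library 3 (adjusted p = 0.0515).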

How the results depend on the processing

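Counts of members called changed with the method as follows. For 4F-induced old against untreated old mice, kidney gave 2 without the filter on low counts, against 0. For untreated old against young mice, kidney gave 0 without the sex term, against 2. Liver gave 3 with DESeq2 or without the filter, and 0 without the sex term or with only the 2 groups compared, against 1. Lung gave 4 with DESeq2, 3 without the filter or with only the 2 groups, and 0 without untreated old libraries 1 and 2, against 2. Muscle gave 1 with RLE scaling, without the filter or with only the 2 groups, and 0 without young libraries 1 and 2, against 2. Spleen gave 1 with DESeq2, without the sex term or with only the 2 groups, against 0. For 4F-induced old against young mice, kidney gave 2 with DESeq2, 3 without the filter and 1 with only the 2 groups, against 0, and liver gave 1 with DESeq2, against 0. Muscle gave 0 without the filter or without young libraries 1 and 2, and 1 without the sex term, against 2. Between the sexes, liver gave 3 with DESeq2 and 1 without the filter, against 0. The cause was not tested.

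With 1 library left out at a time, the age count lay between 1 and 2 for kidney, between 0 and 1 for both liver and spleen, between 0 and 3 for lung, and between 0 and 2 for muscle. The counts against young for 4F-induced old mice ran from 0 to 1 in kidney, 1 to 2 in lung and 0 to 2 in muscle. The sex counts ran from 3 to 5 in kidney and 0 to 1 in liver, and the count of age differences between tissues from 1 to 3. Of 2428 single-gene values recomputed, 238 belonged to called results, of which 67 lost the call, and 0 called values reversed.

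No paired analysis was possible because the labels give no replicate numbers shared between groups, and the numbers used here follow accession order.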
